A study of Homo sapiens and Mus musculus with 10 samples.

Results

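The genes described here are 10 AP-1 and immediate early genes, 6 of which encode subunits of the transcription factor AP-1. They were taken by symbol from the 2 deposited tables, ignoring case: FOS, FOSB and FOSL2, JUN, JUNB and JUND, EGR1, and IER2, IER3 and IER5. All 10 had 1 row each in both tables, among 27800 human and 24493 mouse gene symbols. WM-1119, an inhibitor of the histone acetyltransferase KAT6A, was given to MOLM-13 cells at 4 µM for 4 days (3 libraries), against DMSO (3 libraries). The same inhibitor was given to ER-Hoxa9 cells at 2 µM for 4 days (2 libraries), against DMSO (2 libraries). MOLM-13 cells come from a human acute myeloid leukaemia with an MLL fusion. ER-Hoxa9 cells are mouse myeloid progenitors kept immature by a HOXA9 fused to an estrogen receptor domain, and the libraries of both groups come from cells kept in 0.5 µM β-estradiol and stem cell factor. Each line is 1 cell culture model, and no label says whether the libraries of a group are separate cultures. The p-values thus rest on a spread between libraries that could be technical. Values are TPM, a level scaled for transcript length and library total, so genes can be compared within a library, and the depth of the libraries is unknown.

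Immediate early genes are switched on within minutes of a growth factor, cytokine or stress signal, without new protein synthesis, and most are switched off again soon after. Signals through the MAP kinases reach factors already bound at their promoters, such as SRF with its ELK partners at CArG boxes and CREB at cyclic AMP response elements (CRE). AP-1 is a dimer of a JUN protein with a FOS or another JUN protein, joined through their leucine zippers, and in myeloid cells it takes part in monocyte and macrophage differentiation.

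The promoters below are shown because FOS, FOSB and EGR1 were highest in number 1 and lowest in number 3 of the MOLM-13 libraries, in both groups, while JUND was highest in number 2 and lowest in number 1. Each is the 250 bases before the RefSeq start in GRCh38.p14, 5′ to 3′ on the strand of the gene. Capitals mark CArG boxes (CC, then 6 bases that are each A or T, then GG), the CRE core TGACG on either strand (CGTCA on the printed one) and the TATA box TATAAA.
FOS, chr14:75278578-75278827, plus strand: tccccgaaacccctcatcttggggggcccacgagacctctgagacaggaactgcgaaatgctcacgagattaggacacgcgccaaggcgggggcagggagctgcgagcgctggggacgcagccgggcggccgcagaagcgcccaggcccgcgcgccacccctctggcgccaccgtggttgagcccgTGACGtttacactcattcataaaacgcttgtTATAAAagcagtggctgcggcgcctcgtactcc
FOSB, chr19:45467746-45467995, plus strand: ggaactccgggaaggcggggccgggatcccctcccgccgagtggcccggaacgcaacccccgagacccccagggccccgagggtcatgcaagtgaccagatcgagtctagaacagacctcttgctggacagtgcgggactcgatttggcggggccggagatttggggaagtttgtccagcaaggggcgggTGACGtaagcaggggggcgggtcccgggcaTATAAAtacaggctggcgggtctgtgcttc
EGR1, chr5:138465229-138465478, plus strand: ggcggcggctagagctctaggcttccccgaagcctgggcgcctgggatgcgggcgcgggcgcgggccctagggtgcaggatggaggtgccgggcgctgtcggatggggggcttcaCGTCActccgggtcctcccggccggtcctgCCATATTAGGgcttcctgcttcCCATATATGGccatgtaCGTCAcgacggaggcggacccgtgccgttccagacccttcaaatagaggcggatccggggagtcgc
JUND, chr19:18281623-18281872, minus strand: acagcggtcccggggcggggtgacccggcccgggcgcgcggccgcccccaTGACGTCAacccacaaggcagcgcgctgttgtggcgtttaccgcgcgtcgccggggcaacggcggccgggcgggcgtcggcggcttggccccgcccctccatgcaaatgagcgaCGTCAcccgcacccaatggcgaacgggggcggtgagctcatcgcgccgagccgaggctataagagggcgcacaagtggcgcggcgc
A CArG box was found at 2 places in the EGR1 window, from -105 and from -83, and in none of the other 8 windows of these genes. Of 35116 RefSeq windows of this length, 1.16% held a CArG box, and 0.0313% held at least 2. FOS and FOSB have a TGACG at -64 and -60, and a TATAAA at -33 and -30. The core TGACG was found in 8 of the 9 windows, the exception being IER5, against 21.2% of all windows. TATAAA was found in FOS, FOSB and JUNB, against 10.7% of all windows. The full element TGACGTCA, which contains the core TGACG on both strands, was found in JUND from -200, against 1.65% of all windows. The AP-1 motif TGANTCA with G or C in the middle was found in 0 of the 9 windows, against 4.2% of all. The EGR motif GCGNGGGCG was found in EGR1 from -198, against 8.41% of all. Both strands were searched, and a match says only that the letters are there. Any link of these motifs to the pattern over replicate numbers was not tested. JUNB, which also holds both TGACG and TATAAA, was the steadiest of these genes in MOLM-13. Bases further upstream were not searched, so a gene without a CArG box in its window may have 1 beyond it. IER3 was not among the windows.

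The human genes are short. In GENCODE 29 on GRCh38, 8 of the 10 span fewer than 5000 bases, against 14.0% of 19940 protein-coding genes, and JUN, JUNB, JUND and IER5 have 1 exon. FOS lies on chromosome 14 (75278774 to 75282230), JUN on chromosome 1 (58780788 to 58784327) and EGR1 on chromosome 5 (138465490 to 138469315). Chromosome 19 holds 4 of them: JUNB (12791496 to 12793315), IER2 (13150415 to 13154908), JUND (18279760 to 18281622) and FOSB (45467995 to 45475179). FOSL2 is on chromosome 2 (28392448 to 28417312), IER5 on chromosome 1 (181088712 to 181092899) and IER3 on chromosome 6 (30743199 to 30744554).

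Before the results, 1 property of the libraries has to be given. In MOLM-13 the replicate number in the labels split the libraries more than the treatment did, and the numbers were taken to pair the libraries. For the typical gene tested, the median share of the sum of squares was 80.0% for the replicate number and 6.82% for treatment, with 2 degrees of freedom for the number and 1 for treatment. The summed share of ribosomal protein genes was 33.9% in the WM-1119 library and 39.8% in the DMSO library of number 3, and 25.7% to 28.4% in the other MOLM-13 libraries. In ER-Hoxa9 those medians were 26.1% for the number and 42.6% for treatment. Myeloid markers were present in both lines: 9 of 10 averaged at least 1 TPM in MOLM-13 (KIT did not), and 8 of 11 in ER-Hoxa9 (Csf1r and Lyz1 did not, and Lyz2 was listed at 0). Summed, they ranged from 8717 to 14016 TPM in WM-1119 and from 6161 to 12737 TPM in DMSO libraries of MOLM-13, and from 3210 to 3264 TPM in WM-1119 and from 1314 to 2635 TPM in DMSO libraries of ER-Hoxa9. Markers of other cell types averaged under 1 TPM in 12 of 17 cases in MOLM-13, with CD2, MS4A1 and PF4 listed at 0, and in 11 of 18 in ER-Hoxa9, with Cd2, Cd3e, Ms4a1 and Hbb-bs listed at 0. Their sums were 132 to 191 TPM in WM-1119 and 97.5 to 169 TPM in DMSO libraries of MOLM-13, most of it NKG7, and 50.9 to 56.9 TPM in WM-1119 and 28.9 to 52.8 TPM in DMSO libraries of ER-Hoxa9. HBB, a haemoglobin gene, had 0.14, 0 and 49.4 TPM with WM-1119, against 0, 0 and 52.1 TPM with DMSO in MOLM-13 numbers 1, 2 and 3. CD3D, a T cell marker and the gene of this list with the smallest unadjusted p in MOLM-13, went the other way from the sums. It had 1.69, 7.05 and 5.48 TPM with WM-1119, against 3.09, 17.0 and 15.8 TPM with DMSO, lower in each pair. Its log2 difference was -1.05 ± 0.64 (SE; limma adjusted p = 0.999985) in a fit that ignores the pairing. With the pairing in the fit, 0 of the 5 genes of this list tested in MOLM-13 were called. LYZ, the lysozyme gene, was at 2759 ± 612 TPM with WM-1119 and 1347 ± 689 TPM with DMSO in MOLM-13 (SD, n = 3 each), and PRTN3, the most abundant myeloid marker, at 5598 ± 1527 and 5092 ± 2130 TPM. In ER-Hoxa9 the most abundant myeloid marker was Mpo, with 1419 and 1512 TPM with WM-1119, against 385 and 1380 TPM with DMSO. Among the markers of other cell types it was the megakaryocyte marker Itga2b, with 15.9 and 11.9 TPM with WM-1119, against 14.9 and 16.0 TPM with DMSO. In the same cells the myeloid marker Flt3 had 219 and 243 TPM with WM-1119, against 146 and 161 TPM with DMSO. The B cell marker Cd79a had 12.1 and 7.76 TPM with WM-1119, against 1.35 and 3.58 TPM with DMSO. Cd3d of the same list was lower, with 5.51 and 5.33 TPM with WM-1119, against 7.37 and 6.76 TPM with DMSO. Of the 7 genes of that list tested, 5 had a positive log2 change. In MOLM-13, FLT3 had 159, 135 and 134 TPM with WM-1119, against 178, 167 and 148 TPM with DMSO, lower in each pair. Of the 9 myeloid markers tested there, 8 had a positive log2 change, as had 61.5% of all genes. Neither list gave a call in either line. Over all genes tested, 0% were called higher and 0.00804% lower in MOLM-13, and 0.0176% each way in ER-Hoxa9. Of the 8 myeloid markers tested in ER-Hoxa9, 5 were higher at an unadjusted p under 0.05 (limma), against 11.6% of all genes. For 7 of these 8 both WM-1119 libraries were above both DMSO libraries, against 40.3% of all genes. Their median log2 change was 0.78, against 0.12. The part of the 2 lists in the results below was not tested.

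In MOLM-13 cells 0 of the 10 genes were called higher and 0 lower with WM-1119. Over all 12436 genes tested the share called was 0% higher and 0.00804% lower. The test was limma on log2(TPM + 1) for genes averaging 1 TPM or more, two-sided, with a Benjamini-Hochberg adjusted p under 0.05 as the threshold. At an unadjusted p under 0.05, 0 of the 10 were higher and 0 lower as well, against 2.08% and 0.965% of all genes. With the replicate block the counts were still 0 and 0. In that fit FOSL2 was higher and IER3 and JUND lower at an unadjusted p under 0.05, against 13.2% and 4.91% of all genes. The median change of the 10 was -0.05 on the log2 scale, WM-1119 minus DMSO, against 0.05 over all genes tested, with 4 positive and 6 negative. For all 10 genes the WM-1119 and DMSO libraries overlapped, while 4.54% of all genes had every WM-1119 library above and 2.43% every one below the DMSO libraries. The replicate number, with its 2 degrees of freedom, held a larger share of the sum of squares than treatment for each of the 10 genes. Per degree of freedom the share was larger for treatment in FOSL2 (39.2% for treatment, 58.2% for the number) and JUNB (34.2% and 42.0%).

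**Figure D1:**
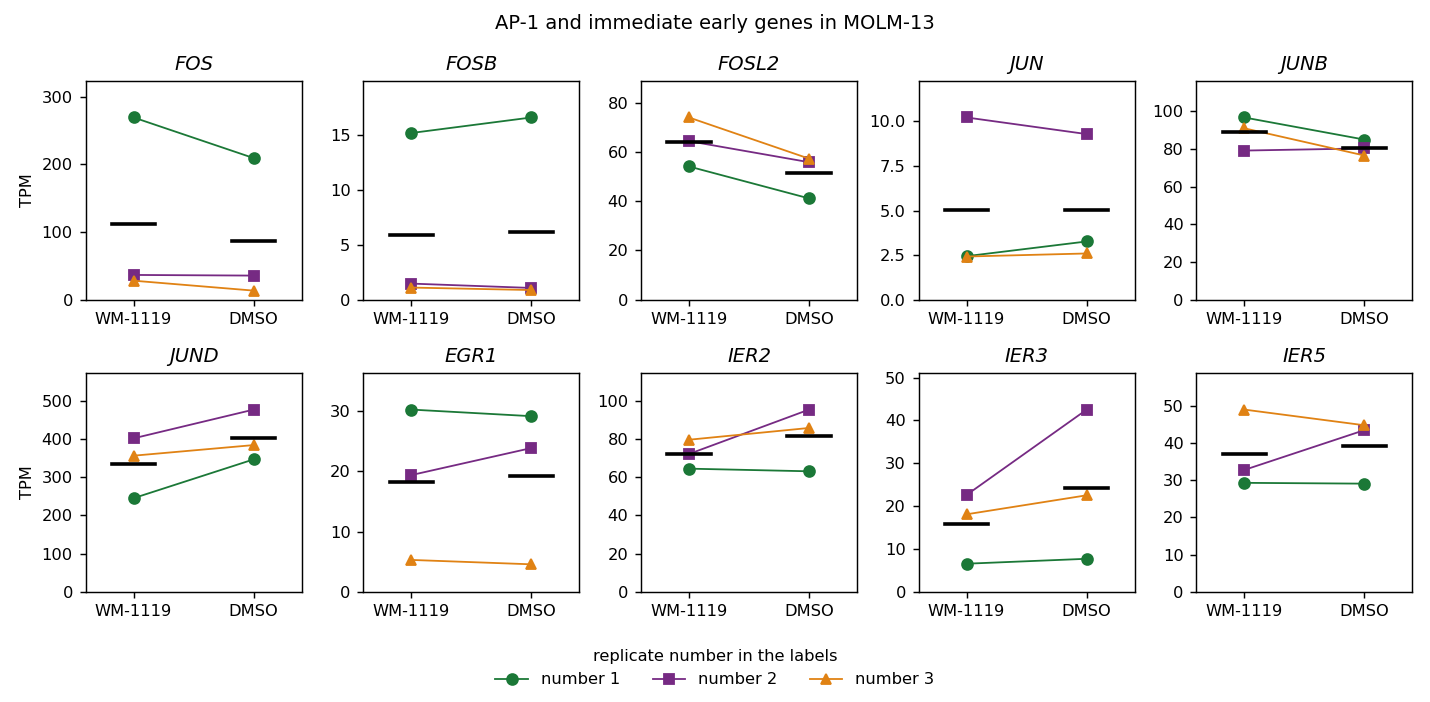
TPM of the 10 genes in the MOLM-13 libraries, WM-1119 left and DMSO right in each panel, with 1 point per library, lines joining libraries of the same replicate number and a black bar at each group mean (n = 3). FOS, FOSB and EGR1 are highest in both libraries of number 1, and JUN, JUND and IER3 in both of number 2.

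FOS, an AP-1 subunit and the classical immediate early gene, had 269, 36.5 and 28.0 TPM in the WM-1119 libraries of MOLM-13 numbers 1, 2 and 3, against 209, 35.5 and 13.3 TPM in the DMSO libraries. Both libraries of number 1 were far above the other 4, and the groups overlapped. FOS averaged 111 ± 137 TPM with WM-1119 and 86.1 ± 107 TPM with DMSO (SD, n = 3 each), a log2 difference of 0.47 ± 1.14 (SE) with a 95% interval of -2.19 to 3.14 (limma adjusted p = 0.999985). Within pairs the WM-1119 library was higher by 0.36, 0.04 and 1.02 on the log2 scale. Fitted with the replicate block, the interval narrowed to -0.04 to 0.99 around the same 0.47 (limma adjusted p = 0.299).

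FOSB, a FOS paralogue, had 15.2, 1.46 and 1.10 TPM with WM-1119, against 16.6, 1.06 and 0.876 TPM with DMSO. Like FOS it was high in the 2 libraries of number 1 and low in the other 4. EGR1, a zinc finger factor that is a classical SRF target, had 30.3, 19.4 and 5.29 TPM with WM-1119, against 29.2, 23.9 and 4.56 TPM with DMSO. It was high in numbers 1 and 2 and low in number 3, in both groups. The log2 differences were 0.10 ± 1.06 for FOSB and -0.02 ± 0.78 for EGR1 (SE). Their 95% intervals, -2.39 to 2.58 and -1.85 to 1.81, allow changes of either sign. Fitted with the replicate block, the intervals narrowed to -0.23 to 0.43 for FOSB and -0.31 to 0.27 for EGR1, still of either sign. Between replicate numbers the mean level differed 11.6-fold for FOS, 16.1-fold for FOSB and 6.04-fold for EGR1. The WM-1119 mean was 1.29, 0.957 and 0.954 times the DMSO mean of these 3 genes.

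FOSL2, the FOS family member also known as FRA2, had 54.1, 64.4 and 74.0 TPM with WM-1119, against 41.1, 55.8 and 57.3 TPM with DMSO. It was higher with WM-1119 in each pair, by 0.39, 0.20 and 0.36 on the log2 scale, although the lowest WM-1119 library lay below 2 of the DMSO libraries. The log2 difference was 0.32 ± 0.21 (SE; limma adjusted p = 0.999985), and 0.32 ± 0.07 with the replicate block (limma adjusted p = 0.173). FOSL2 and FOS were the 2 genes higher with WM-1119 in all 3 pairs. Among all genes tested, 28.6% were higher in all 3 pairs, so 2 of 10 is not above the background. FOS made up 79.5%, 35.7% and 27.2% of the summed TPM of FOS, FOSB and FOSL2 in the WM-1119 libraries, against 78.4%, 38.4% and 18.6% in the DMSO libraries. In numbers 2 and 3 of both groups FOSL2 was the most abundant of these 3.

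JUND, the JUN family member that many resting cells express constantly, was the most abundant of the 10 on average, at 368 TPM over the 6 libraries. It had 245, 402 and 356 TPM with WM-1119, against 346, 477 and 384 TPM with DMSO. Each WM-1119 library was below its DMSO partner, with log2 differences of -0.50, -0.25 and -0.11, and the groups overlapped. The log2 difference was -0.28 ± 0.24 (SE) with a 95% interval of -0.85 to 0.28 (limma adjusted p = 0.999985), and the replicate block gave an adjusted p of 0.244 (limma). JUNB, an AP-1 subunit that is also a cytokine target, was the steadiest of the 10, with 96.8, 79.2 and 91.0 TPM with WM-1119, against 85.0, 80.3 and 76.5 TPM with DMSO. Its log2 difference was 0.14 ± 0.17 (SE), and 0.14 ± 0.08 with the replicate block. JUN, the founding member of the family, had 2.44, 10.2 and 2.42 TPM with WM-1119, against 3.27, 9.29 and 2.59 TPM with DMSO, and stood out in both libraries of number 2. Its log2 difference was -0.09 ± 0.57 (SE), and -0.09 ± 0.12 with the replicate block.

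IER3, an inhibitor of apoptosis and a target of NF-kB, had 6.54, 22.6 and 18.1 TPM with WM-1119, against 7.69, 42.5 and 22.5 TPM with DMSO. Each WM-1119 library was below its DMSO partner, with log2 differences of -0.20, -0.88 and -0.30, and both libraries of number 1 were lowest. The log2 difference over the groups was -0.46 ± 0.64 (SE; limma adjusted p = 0.999985, and 0.239 with the replicate block). IER3 and JUND were the 2 genes lower in all 3 pairs, as were 14.4% of all genes. IER2, a growth factor-inducible nuclear protein, had 64.5, 72.2 and 79.7 TPM with WM-1119, against 63.2, 95.5 and 85.9 TPM with DMSO. IER5, which acts with the heat shock factor HSF1, had 29.3, 32.8 and 49.0 TPM with WM-1119, against 29.1, 43.5 and 44.8 TPM with DMSO. For both, number 1 was lowest in each group, and the log2 differences were -0.16 ± 0.21 for IER2 and -0.09 ± 0.27 for IER5 (SE). With the replicate block they were -0.16 ± 0.10 for IER2 and -0.09 ± 0.12 for IER5 (SE).

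The same replicate number was highest in the WM-1119 and in the DMSO group for 9 of the 10 genes, IER2 being the exception, against 72.3% of all genes tested. In ER-Hoxa9 this held for 8 of 9 genes, against 59.8%. In an F test of the replicate number in the fit with the replicate block (limma), chosen after the values were seen, 8 of the 10 passed an adjusted p under 0.05, all but IER2 and JUNB. Of all genes tested, 50.7% passed. In ER-Hoxa9 it was 0 of 9 and 0.238%. Without the number 3 libraries 0 of the 10 and 0% of all genes passed, without number 1 it was 2 of the 10 and 10.5%, and without number 2 it was 7 of the 10 and 44.5%. For FOS, FOSB, EGR1, IER3 and JUN the SD of log2(TPM + 1) over the 6 libraries was above that of 90% of the genes tested, at percentile 99.1 for FOS and 98.6 for FOSB. JUNB lay at percentile 5.90. The replicate number accounted for 95.9% of the sum of squares of FOS, 99.6% of FOSB, 99.1% of EGR1 and 98.2% of JUN, and for 42.0% of that of JUNB.

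**Figure D2:**
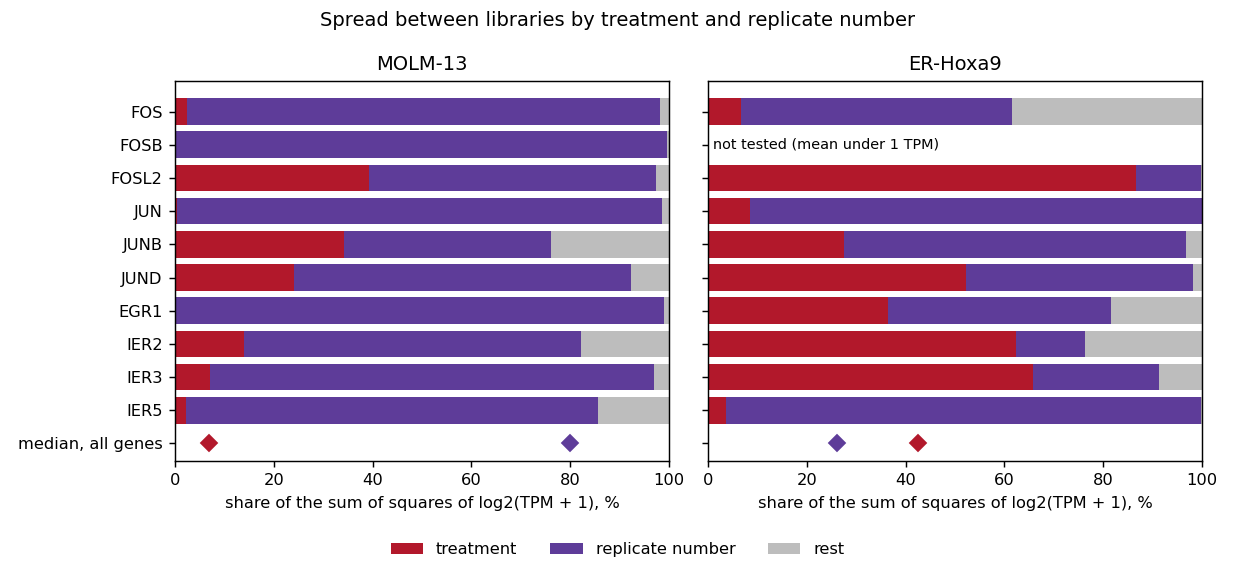
Share of the sum of squares of log2(TPM + 1) that goes with treatment, with the replicate number and with neither, for each gene in MOLM-13 (6 libraries) and ER-Hoxa9 (4 libraries), with diamonds at the medians over all genes tested. In MOLM-13 treatment holds 2.35% for FOS and 39.2% for FOSL2, and in ER-Hoxa9 86.6% for Fosl2.

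The 6 heat shock genes all differed between replicate numbers in MOLM-13 (limma F test, adjusted p under 0.05), as did 50.7% of all genes tested. The 6 listed chaperone genes summed to 2224, 1630 and 1016 TPM in the WM-1119 libraries of numbers 1, 2 and 3, against 2448, 1299 and 920 TPM in the DMSO libraries, so both libraries of number 1 were highest, as for FOS. HSPA8, the constitutive HSP70, had 1316, 898 and 545 TPM with WM-1119, against 1430, 719 and 515 TPM with DMSO. HSPA1A, an inducible HSP70 that shares sequence with HSPA1B and is therefore uncertain, had 14.0, 7.12 and 6.45 TPM with WM-1119, against 10.2, 5.10 and 4.70 TPM with DMSO. The summed myeloid markers were also highest in both libraries of number 1. The part of either list in the pattern of FOS was not tested. Of the other genes averaging at least 5 TPM, the closest to FOS in centred log2 profile over the 6 libraries were SNORA68, DUSP1 and SNORA27, with root mean square differences of 0.40, 0.75 and 0.78. Closest to EGR1 were MKI67, SNORD14B and DUSP1, with 0.27, 0.31 and 0.31. DUSP1, a phosphatase of MAP kinases and itself an immediate early gene, thus came up for both, with 13.9, 6.76 and 1.99 TPM with WM-1119, against 16.0, 6.400 and 1.92 TPM with DMSO. MKI67, the Ki-67 proliferation antigen, had 36.8, 38.2 and 11.1 TPM with WM-1119, against 39.1, 32.4 and 8.26 TPM with DMSO.

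In ER-Hoxa9 cells 9 of the 10 genes passed the filter and 0 were called higher and 0 lower, against 0.0176% of 11362 genes called higher and 0.0176% called lower. Fosb was listed at 0.0525 and 0.0439 TPM with WM-1119, against 0.0777 and 0.0346 TPM with DMSO, and was not tested. At an unadjusted p under 0.05, 1 gene was higher, Fosl2, and 0 were lower, against 11.6% and 1.13% of all genes. The median log2 change of the 9 was 0.05, against 0.12 over all genes tested, and 5 were positive. For Fosl2, Jund and Ier3, 3 of the 10 genes, the libraries did not overlap, with both WM-1119 libraries above both DMSO libraries, as for 40.3% of all genes. For Ier2 both WM-1119 libraries were below, as for 7.94% of all genes. Both pairs were higher with WM-1119 for 5 of the 10 genes and lower for 3, against 53% and 15.7% of all genes. With the replicate block, Fosl2 and Jund were higher and Egr1 lower at an unadjusted p under 0.05, against 15.5% and 2.4% of all genes. TPM are relative, and median-of-ratios scaling moved the median change of all genes to -0.01, a shift that turns the sign of Ier3 and Ier5, and that of the median of the 9 genes, which was -0.080 with that scaling.

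**Figure D3:**
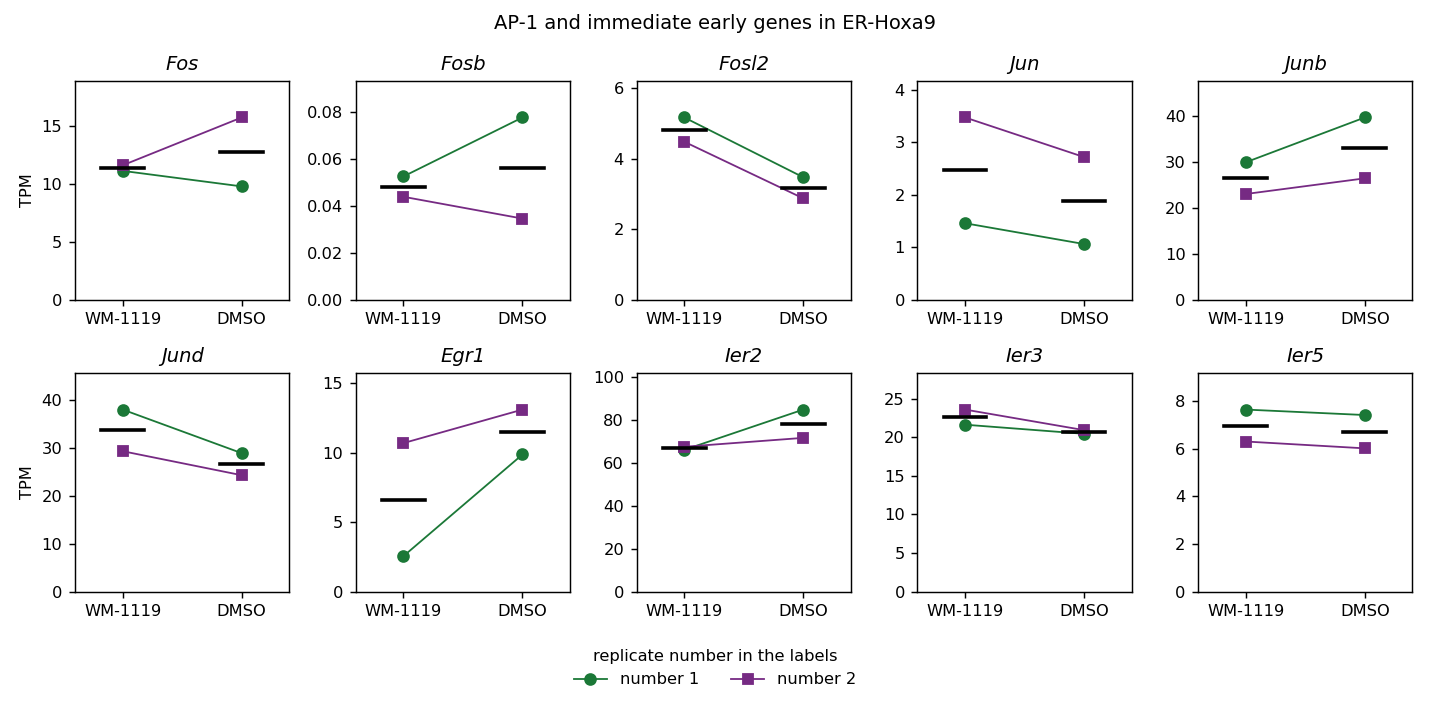
TPM of the 10 genes in the ER-Hoxa9 libraries, WM-1119 left and DMSO right in each panel, with 1 point per library, lines joining libraries of the same replicate number and a black bar at each group mean (n = 2). Fosl2 and Jund are higher in both WM-1119 libraries, Ier2 is lower in both, and Egr1 is lowest in 1 WM-1119 library.

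Fosl2 had 5.17 and 4.48 TPM with WM-1119 in numbers 1 and 2, against 3.47 and 2.87 TPM with DMSO. The groups did not overlap, and it had the smallest unadjusted p of the 9. Its log2 difference was 0.48 ± 0.18 (SE) with a 95% interval of 0.03 to 0.93, and it missed the threshold (limma adjusted p = 0.375). With median-of-ratios scaling the difference was 0.37. Fos had 11.1 and 11.6 TPM with WM-1119, inside the range of the DMSO libraries at 9.79 and 15.8 TPM, and a log2 difference of -0.12 ± 0.23 (SE). Unlike in MOLM-13, Fos did not vary widely between libraries, at most 1.61-fold against 20.2-fold in MOLM-13. That contrast is a description of 2 tables that were normalized separately.

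Egr1 had 2.57 and 10.7 TPM with WM-1119, against 9.88 and 13.1 TPM with DMSO. Its log2 difference was the largest in size of the 9, -0.94 ± 0.56 (SE), with a 95% interval of -2.38 to 0.50 (limma adjusted p = 0.520). The log2 difference was -1.61 in number 1 and -0.27 in number 2, so it came mostly from number 1. Without WM-1119 replicate 1 it was -0.083, which sets WM-1119 number 2 against DMSO numbers 1 and 2. By the same measure of likeness, over 4 libraries, the closest genes to Egr1 were Snord70, 2310075C17Rik and Hist2h2aa1, with root mean square differences of 0.22, 0.24 and 0.25. Those closest to Fos were 4930519L02Rik, Ccr2 and 1700012D01Rik, with 0.03, 0.05 and 0.05. With 9102 genes searched over only 4 libraries, close matches come easily. These differences cannot be set beside those over 6 libraries in MOLM-13.

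Jund had 37.9 and 29.3 TPM with WM-1119, against 28.8 and 24.3 TPM with DMSO, and the WM-1119 libraries were both above. The log2 difference was 0.32 ± 0.17 (SE; limma adjusted p = 0.478). Junb had 29.9 and 23.0 TPM with WM-1119, against 39.6 and 26.4 TPM with DMSO, and the groups overlapped, with a log2 difference of -0.29 ± 0.24 (SE; limma adjusted p = 0.613). Jun had 1.45 and 3.47 TPM with WM-1119, against 1.06 and 2.71 TPM with DMSO, and number 2 was higher in both groups.

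Ier2 had 65.9 and 67.4 TPM with WM-1119, against 84.6 and 71.5 TPM with DMSO, and was the most abundant of the 10 in each ER-Hoxa9 library. Its log2 difference was -0.22 ± 0.13 (SE; limma adjusted p = 0.504), and -0.37 with median-of-ratios scaling. Ier3 had 21.6 and 23.6 TPM with WM-1119, against 20.4 and 20.9 TPM with DMSO, a log2 difference of 0.12 next to a median of 0.12 over all genes, and -0.019 with median-of-ratios scaling. Ier5 had 7.64 and 6.30 TPM with WM-1119, against 7.41 and 6.02 TPM with DMSO, a log2 difference of 0.05 that became -0.080 with that scaling.

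**Figure D4:**
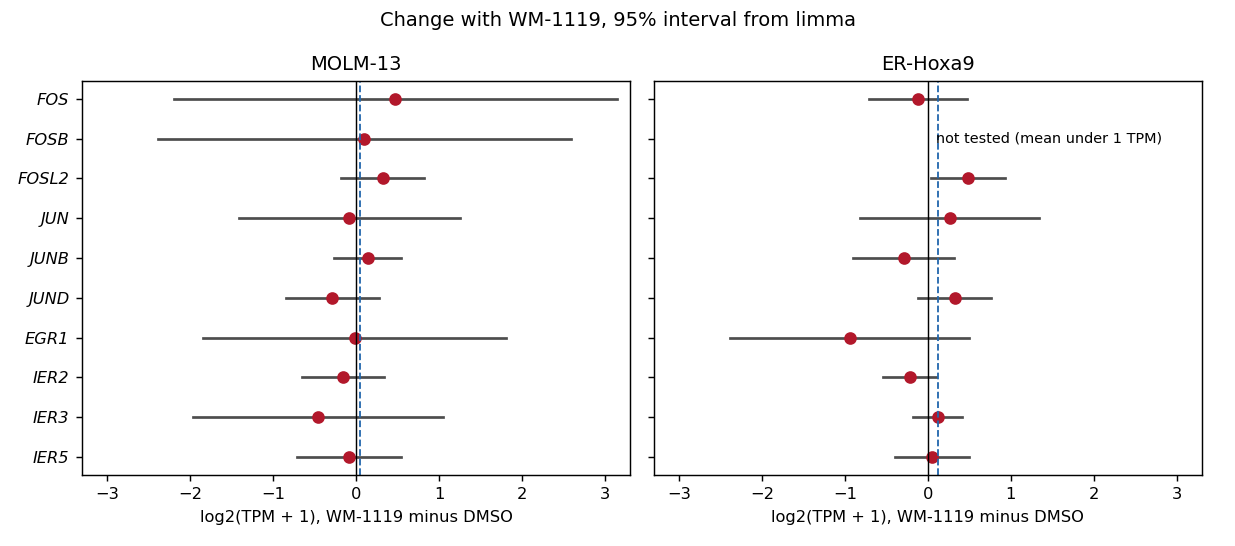
Log2 difference of TPM + 1, WM-1119 minus DMSO, for each gene in MOLM-13 and ER-Hoxa9. The 95% intervals are from limma without the replicate block, and a dashed line marks the median over all genes tested. The widest intervals are those of FOS in MOLM-13, -2.19 to 3.14, and of Egr1 in ER-Hoxa9, -2.38 to 0.50.

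The balance between the JUN family members can be read within a library, where scaling plays no part. In ER-Hoxa9 the ratio of Jund to Junb TPM was 1.27 and 1.27 in the WM-1119 libraries, against 0.728 and 0.919 in the DMSO libraries, so Jund led with WM-1119 and Junb with DMSO. In MOLM-13 the ratio of JUND to JUNB was 2.53, 5.07 and 3.91 in the WM-1119 libraries, against 4.08, 5.94 and 5.02 in the DMSO libraries of the same numbers. It was lower with WM-1119 in each pair, although the groups overlapped. The ratio was chosen after the values were seen, and neither the ratio nor the difference between the lines was tested.

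**Figure D5:**
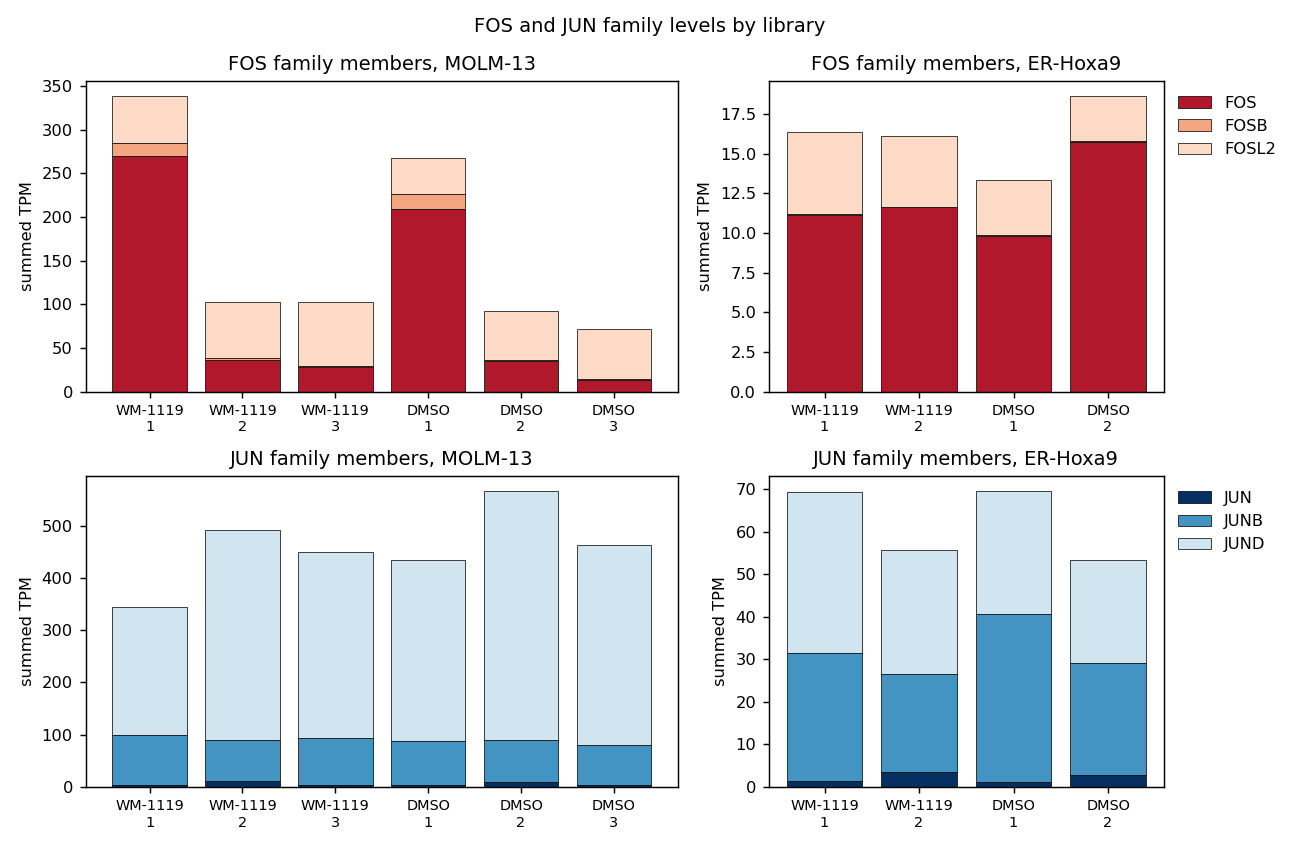
Summed TPM of the FOS family members (top) and JUN family members (bottom) in each library of MOLM-13 (left) and ER-Hoxa9 (right), WM-1119 libraries left of DMSO libraries and numbered by replicate. FOS makes up 79.5% and 78.4% of its family's TPM in the number 1 libraries of MOLM-13, and JUND 71.2% to 84.2% of its family's in all 6.

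By level, the order in MOLM-13 was JUND, FOS, JUNB, IER2, FOSL2, IER5, IER3, EGR1, FOSB and JUN, with means from 368 TPM for JUND to 5.04 TPM for JUN. The ranges of all neighbours in that order overlapped, and FOS was above JUNB in only 2 of 6 libraries. In ER-Hoxa9 the order was Ier2, Jund, Junb, Ier3, Fos, Egr1, Ier5, Fosl2, Jun and Fosb, with means from 72.3 TPM for Ier2 to 0.0522 TPM for Fosb. There, ranges did not overlap between Ier2 and Jund, between Ier3 and Fos, between Ier5 and Fosl2 or between Jun and Fosb. Jund and Junb, at 30.1 and 29.7 TPM, each led in 2 of 4 libraries. The 10 genes together took 0.0692% to 0.0864% of the TPM of a MOLM-13 library and 0.0180% to 0.0205% of an ER-Hoxa9 library.

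Other genes of the pathway gave no calls either. Over all genes tested, 0% were called higher and 0.00804% lower in MOLM-13, and 0.0176% each way in ER-Hoxa9. The median log2 change over all genes was 0.05 in MOLM-13 and 0.12 in ER-Hoxa9. Of 13 other AP-1 and related leucine zipper genes, 10 were tested in MOLM-13, with 0 called and a median log2 change of 0.03. MAFG, a small MAF protein and the most abundant of them, was at 36.9 ± 5.17 TPM with WM-1119 and 36.6 ± 4.67 TPM with DMSO (SD, n = 3 each), and BATF, with the smallest unadjusted p, was at 28.2 ± 6.91 and 22.4 ± 3.32 TPM. In ER-Hoxa9, 10 were tested and 0 called, with a median of 0.06. At an unadjusted p under 0.05 (limma), 3 of these 10 were higher and 0 lower, against 11.6% and 1.13% of all genes. Batf2, with the smallest unadjusted p, had 7.41 and 7.12 TPM with WM-1119, against 4.72 and 5.49 TPM with DMSO, and Jdp2, a repressor of AP-1 and the most abundant, had 49.0 and 41.0 TPM with WM-1119, against 45.6 and 45.3 TPM with DMSO. Of 30 other immediate early genes, 25 were tested in MOLM-13 with 0 called (median 0.05), and 19 in ER-Hoxa9 with 0 called (median 0.07). Of those 19, 12 were positive, and 3 with median-of-ratios scaling (median -0.057), against 71.9% and 47.4% of all genes. ZFP36L2, an RNA-binding protein and the most abundant in both lines, was at 157 ± 18.3 TPM with WM-1119 and 135 ± 7.57 TPM with DMSO in MOLM-13 (SD, n = 3 each). In ER-Hoxa9, Zfp36l2 had 113 and 132 TPM with WM-1119, against 130.2 and 133 TPM with DMSO. Those with the smallest unadjusted p were ZFP36L1 in MOLM-13, with 0.347, 1.99 and 1.29 TPM with WM-1119, against 0.842, 7.88 and 3.003 TPM with DMSO, and Nfkbiz in ER-Hoxa9, with 13.6 and 11.7 TPM with WM-1119, against 20.0 and 14.6 TPM with DMSO. ZFP36L1 was lower with WM-1119 in each pair. At a log2 difference of -0.94 ± 0.57 (SE) it did not pass without the replicate block (limma adjusted p = 0.999985). With the block 0 of the 25 genes were called in MOLM-13.

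Of the 19 kinases and transcription factors that act upstream, such as SRF and the ELK factors, 18 were tested in MOLM-13 and 0 called, with a median of 0.07. All 19 were tested in ER-Hoxa9 and 0 were called, with 17 positive and a median of 0.21, against 71.9% positive and a median of 0.12 over all genes. With median-of-ratios scaling 12 of the 19 were positive, with a median of 0.066, against 47.4% and -0.014 over all genes. Both WM-1119 libraries were above both DMSO libraries for 11 of these 19, where 40.3% of all genes were. RPS6KA1, the kinase RSK1, was at 148 ± 26.1 TPM with WM-1119 and 168 ± 47.3 TPM with DMSO in MOLM-13 (SD, n = 3 each). In ER-Hoxa9, Rps6ka1 had 73.1 and 69.2 TPM with WM-1119, against 53.9 and 59.0 TPM with DMSO, a log2 difference of 0.33 ± 0.11 (SE; limma adjusted p = 0.361). RPS6KA5, the kinase MSK1, was at 3.48 ± 0.405 TPM with WM-1119 and 3.03 ± 0.593 TPM with DMSO in MOLM-13 (SD, n = 3 each). These genes code for proteins whose activity is set largely by phosphorylation, which TPM do not measure. Of the chaperone genes, 0 of 6 in MOLM-13 and 0 of 5 in ER-Hoxa9 were called. Hspa1b, an inducible HSP70 whose near-identical copy makes it uncertain, had 1.69 and 1.88 TPM with WM-1119, against 0.640 and 0.786 TPM with DMSO in ER-Hoxa9.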

How the data were processed

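For each line the authors deposited gene-level TPM in 1 table. The submitters' processing notes name Salmon, hg38 and mm10. Salmon's version and annotation were not given in the sources used here. Each column sums to 1000000, TPM keep no depth, and 0 columns were unassigned. The mouse columns carry another line name and were matched to ER-Hoxa9 by treatment and number.

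Here, values were taken as log2(TPM + 1), genes averaging under 1 TPM in a line were dropped, and each line was fitted with limma 3.58.1 in R 4.3.3 (eBayes with trend). Same-numbered MOLM-13 libraries deviated together (correlations 0.52, 0.44 and 0.61, all over 0.1), so the numbers pair them, although the labels do not say what they share. Figures used matplotlib 3.10.9. Alternatives were a pseudocount of 0.1, no filter, median-of-ratios scaling, no microRNA entries, the replicate block and leaving out each library. The named genes were all 10 members, per list the gene with the smallest unadjusted p and the most abundant one (no list gene passed; 1 such gene is not reported here), and per line the 3 genes closest to FOS and EGR1; DNA motifs, the F test of replicate number, the family ratios and other examples were chosen after values were seen. The members and lists were chosen with earlier results of these data known. Promoters are from RefSeq (GRCh38.p14, 9 of 10 genes matched) and positions from GENCODE 29; mouse coordinates and sequences were not used here.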

Additional observations from a re-analysis of the deposited data

Results flagged for a closer look

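For JUND and IER3 the lines moved in opposite directions in every same-numbered pair. JUND was lower with WM-1119 in all 3 pairs of MOLM-13, with a log2 change of -0.28, and higher in both pairs of ER-Hoxa9, with 0.32. IER3 was lower with WM-1119 in all 3 pairs of MOLM-13, with a log2 change of -0.46, and higher in both pairs of ER-Hoxa9, with 0.12. None of these 4 changes passed the threshold, and the difference between the lines was not tested, since the tables were normalized separately and dose and species differ as well. With median-of-ratios scaling Ier3 in ER-Hoxa9 was at -0.019 and Jund at 0.18. Over all genes tested, 14.4% were lower in all 3 pairs of MOLM-13, and 53% were higher in both pairs of ER-Hoxa9. The share of genes that did both was not computed. The median change over all genes in ER-Hoxa9 was 0.12, like that of Ier3.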

How the results depend on the processing

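No alternative called any of the 10 genes in either line, with 0 higher and 0 lower under 18 alternatives in MOLM-13 (lowest limma adjusted p = 0.155) and 13 in ER-Hoxa9 (0.191). Of 297 recomputed changes, 28 had the opposite sign, and the cause was not tested. With median-of-ratios scaling, with or without the replicate block, Ier3 was at -0.019 and Ier5 at -0.080 in ER-Hoxa9. In MOLM-13 with the replicate block, EGR1 was at 0.11 and IER5 at 0.069 without the number 2 libraries, and JUN at 0.027 without the number 1 libraries. With the block and 1 number left out of both groups, FOS ran from 0.20 to 0.69, FOSB from 0.02 to 0.21 and EGR1 from -0.12 to 0.11. Leaving out 1 library was fitted without the block, so the groups then held unequal replicate numbers. In MOLM-13 those log2 changes ran from -0.54 to 1.54 for FOS, from -0.85 to 1.15 for FOSB and from -0.79 to 0.65 for EGR1. They ran from -1.09 to 0.072 for IER3, from -0.30 to 0.060 for IER5 and from -0.66 to 0.38 for JUN. In ER-Hoxa9 they ran from -0.44 to 0.20 for Fos, from -0.083 to 0.18 for Ier5, from -0.17 to 0.69 for Jun, and from -1.80 to -0.083 for Egr1, whose sign held. The count of the 10 genes that differed between MOLM-13 replicate numbers was 8, and 2 without the number 1 libraries and 0 without the number 3 libraries in both groups, where fewer libraries were tested. In ER-Hoxa9 that count was 0. Same-numbered deviations in ER-Hoxa9 correlated at 0.21, over the limit of 0.1 used for MOLM-13 but lower than there. The labels do not say that the numbers pair these libraries, and with the replicate block 0 genes were called in ER-Hoxa9. Pairing the MOLM-13 libraries with the replicate block changed no call of the 10 genes. Because TPM keep no depth, precision is known only from the spread between libraries. At 3 and 2 libraries a group the intervals above are wide. In MOLM-13 the SE was smaller with the replicate block than without it for each of the 10 genes. It was 0.20 against 1.14 for FOS and 0.08 against 0.17 for JUNB.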
